A study of Mus musculus with 8 samples.

Results

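The genes described here are those of MHC class II antigen presentation: the chains of the classical molecules (H2-Aa, H2-Ab1, H2-Eb1), the invariant chain (Cd74), the peptide editor (H2-DMa, H2-DMb1), its inhibitor (H2-Oa, H2-Ob) and the master coactivator of the whole group (Ciita). These 9 genes were chosen by name, as a pathway, and a gene was counted as measured where a probeset mapped to it and to no other gene. That left 8 of the 9, each with 1 probeset, out of 19938 genes with such a probeset. H2-DMb1 was not analysed, because its probeset is annotated to a neighbouring gene as well.

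Expression was measured on 8 microarrays. Lymphoid primed multipotent progenitors, sorted from mouse bone marrow as lineage marker negative, Sca and Kit positive and high in Flt3, were kept for 4 days on OP9-DL4 stromal cells, which present the Notch ligand DL4. The medium held Flt3L (5 ng/ml) and an interleukin given in the labels as IL1. CD45.2-positive cells were then sorted into lineage-negative (LN) cells, which lack Mac1, Gr1, Thy1 and CD25, or into T lineage cells, which carry Thy1 and CD25. The groups were Tcf7-/- LN cells (3 mice), in which the transcription factor Tcf1 is missing, Tcf7+/+ LN cells (3 mice) and Tcf7+/+ T lineage cells (2 replicates). Both genotypes came from a line on a mixed background after about 6 backcrosses, the labels give no age, and deficient progenitors formed no T lineage cells. The LN gate does not select for any marker of dendritic cells and is defined by what its cells lack.

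MHC class II molecules display peptides from endosomes to CD4 T cells. They are made in quantity by dendritic cells, B cells and activated macrophages, and mouse T cells make little of them. The alpha and beta chains assemble with the invariant chain, which blocks the groove and steers the complex to endosomes. Proteases cut the invariant chain down to a fragment, H2-DM exchanges that fragment for peptide, and H2-O restrains H2-DM. The genes of these chains share a promoter module, in which an X box bound by RFX factors and a Y box bound by NF-Y stand at a fixed distance, and Ciita docks on the factors assembled there.

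The promoter module is shown first, since it is the feature the chain genes are known to share. RefSeq start-site windows (GRCm38.p6, from 250 bases before to 50 bases after the start) matched 6 of the 9 members by symbol. H2-Ab1 and Ciita did not match. Windows of the chromosome that holds Cd74 were left out, so Cd74 could not match. The search used the X-box core GCAAC and the Y-box core ATTGG, and asked for the Y core to begin 25 to 40 bases after the X core on the same strand, on either strand of the window. The spacing was set after these windows had been read. The pair stood on the gene's own strand in 4 of the 6 members, and these are printed below with both cores in capitals, 5′ to 3′ along the gene. H2-Aa lies at chr17:34287852-34287934 (minus strand), H2-Eb1 at chr17:34305746-34305827 (plus strand), H2-Oa at chr17:34092273-34092355 (plus strand) and H2-Ob at chr17:34238788-34238867 (plus strand), all upstream of the transcription start.
H2-Aa: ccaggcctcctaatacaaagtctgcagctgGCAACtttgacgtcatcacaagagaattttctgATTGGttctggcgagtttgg
H2-Eb1: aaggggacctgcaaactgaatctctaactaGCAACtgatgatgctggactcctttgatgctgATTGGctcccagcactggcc
H2-Oa: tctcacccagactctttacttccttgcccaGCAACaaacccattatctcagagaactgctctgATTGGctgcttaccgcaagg
H2-Ob: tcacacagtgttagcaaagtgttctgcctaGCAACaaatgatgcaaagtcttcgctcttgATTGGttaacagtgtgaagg

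The distance from the first base of the X core to the first base of the Y core was 33 bases in H2-Aa, 32 in H2-Eb1, 33 in H2-Oa and 30 in H2-Ob. The X core began 81, 91, 76 and 87 bases before the start in these genes. Between the cores H2-Aa also holds a full cyclic AMP response element, TGACGTCA, which the other 3 stretches do not. Over the 32851 windows of the same length outside chromosome 18, 35.2% held GCAAC and 37.4% held ATTGG on either strand, without regard to overlap with other motifs. Of the same windows, 1.79% held TGACGTCA and 0.794% held the spaced pair. The windows of H2-DMa and H2-DMb1 did not hold the pair in these letters. These matches describe letters and are not evidence of binding.

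Class II genes were high in the LN cells of both genotypes, whose arrays overlapped, and lower in T lineage cells. H2-Aa, the alpha chain of the I-A molecule, stood at 11.40, 11.24 and 11.30 on the log2 scale in the deficient LN arrays, at 11.25, 11.28 and 11.59 in the wildtype LN arrays, and at 5.60 and 6.40 in the T lineage arrays. H2-Ab1, its beta chain, stood at 11.21, 11.04 and 11.09, then 11.07, 11.09 and 11.39, and then 6.10 and 6.65 in the same order. For both chains the LN arrays of the 2 genotypes overlapped, and the T lineage arrays lay far below all of them. The lowest LN array exceeded the highest T lineage array by a log2 gap of 4.84 for H2-Aa and 4.39 for H2-Ab1.

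H2-Eb1, the beta chain of the I-E molecule, stood at 9.90, 9.78 and 9.69 in deficient LN, 9.71, 9.91 and 10.18 in wildtype LN and 6.60 and 6.62 in T lineage arrays. Cd74, the invariant chain, stood at 9.40, 9.30 and 9.47 in deficient LN, 9.51, 9.33 and 9.97 in wildtype LN and 5.83 and 5.33 in T lineage arrays. Again the genotypes overlapped and the T lineage arrays stood apart. The T lineage arrays were closest to each other for H2-Eb1 and furthest apart for H2-Aa among the members.

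The editing genes separated the gates as well. H2-DMa, the alpha chain of the peptide editor, stood at 10.72, 10.63 and 10.84 in deficient LN, 10.74, 10.31 and 10.93 in wildtype LN and 8.61 and 9.03 in T lineage arrays. H2-Oa, the alpha chain of the H2-DM inhibitor, stood at 8.29, 8.16 and 8.14, then 8.06, 8.21 and 8.48, and then 7.24 and 6.92. H2-Ob, the beta chain of that inhibitor, stood at 9.29, 9.46 and 9.43, then 9.17, 9.13 and 9.40, and then 7.27 and 7.64. Each of these genes separated T lineage from LN arrays without overlap, by log2 gaps of 1.5 for H2-Ob, 1.28 for H2-DMa and 0.81 for H2-Oa.

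Ciita, the coactivator that recruits the transcription machinery to these promoters, stood at 8.11, 7.79 and 7.92 in deficient LN, 8.0, 7.84 and 8.33 in wildtype LN and 6.88 and 6.72 in T lineage arrays. Its lowest LN array lay 0.90 above its highest T lineage array. Log2 values of different probesets depend on the probes, so these levels order arrays for a gene and not genes against each other.

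**Figure D1:**
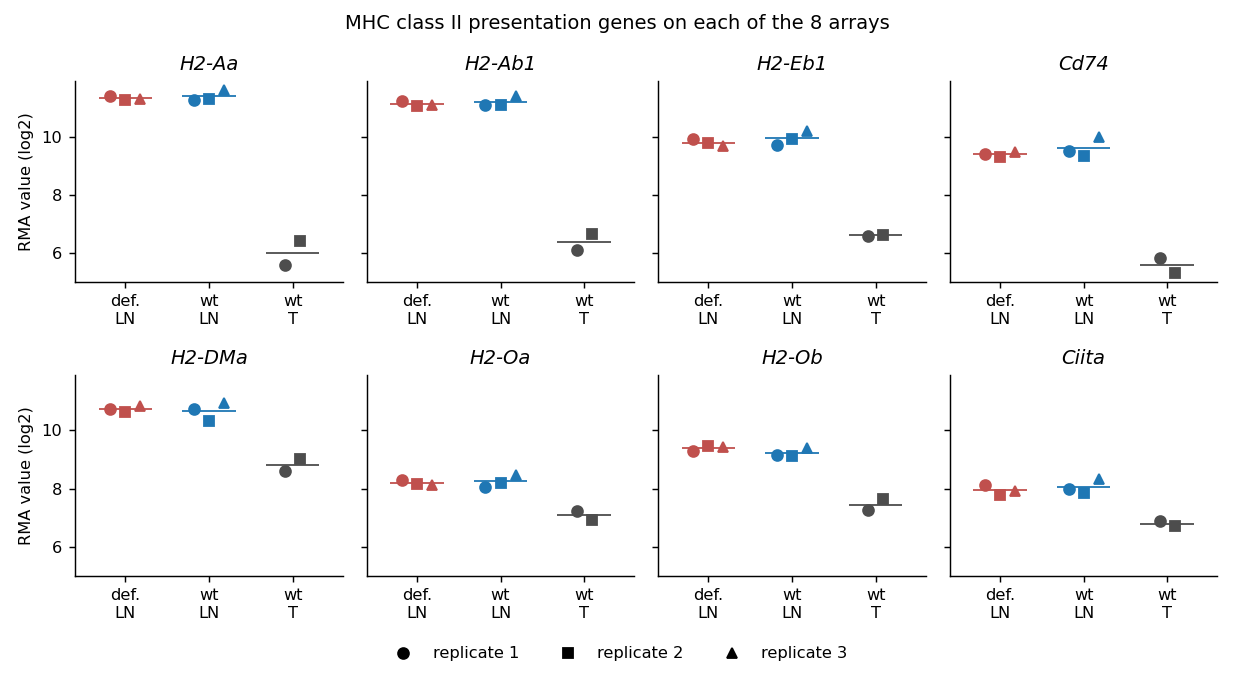
RMA value (log2, vertical axis) of the 8 measured class II genes on each array, by group (def. LN, wt LN and wt T on the horizontal axis); symbols are replicates and lines are group means. In every panel the T lineage arrays lie below all LN arrays, and the LN arrays of the 2 genotypes overlap.

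T lineage cells were compared with wildtype LN cells to ask how the class II program differs where the T lineage has been entered. All 8 measured members fell (limma, Benjamini-Hochberg adjusted p under 0.05), where 10.4% of all 21789 probesets were called lower, and each fell by a log2 difference of at least 1, as did 2.38% of probesets. No member rose, against 7.66% of probesets called higher and 18% called in either direction. The T lineage arrays lay below all wildtype LN arrays for 8 of 8 members, against 19.8% of probesets. The median difference over the members was -2.58, and over all probesets it was 0.04. H2-Aa fell to 2.42% of its wildtype LN level (log2 difference -5.37, SE 0.19, adjusted p = 3.85e-08), from 11.37 ± 0.19 (SD, n = 3) to 6.00 ± 0.57 (SD, n = 2). Only 1 of all probesets had a larger fall. These are bulk samples, in which fewer cells of a type and less RNA per cell cannot be told apart. Each p sets a difference against the spread between replicates (3 mice or 2 replicates a group), pooled over the 3 groups. That spread is also moderated by limma across probesets.

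The falls of the other members are given by probeset. H2-Ab1 fell by 4.81 on the log2 scale (95% interval -5.15 to -4.47, adjusted p = 2.7e-08), or 28.1-fold. Cd74 fell by 4.02 (-4.43 to -3.62, 1.92e-07), or 16.3-fold, and H2-Eb1 differed by -3.33 (-3.60 to -3.05, 4.81e-08), or 10.0-fold. Of the editing genes, H2-DMa stood at -1.84 (-2.22 to -1.46, 3.19e-05) and H2-Ob at -1.78 (-2.05 to -1.52, 3.14e-06), and they fell 3.58-fold and 3.44-fold. Ciita, at -1.26 (-1.57 to -0.95, 0.000114), and H2-Oa, at -1.16 (-1.46 to -0.87, 0.000124), fell 2.39-fold and 2.24-fold.

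The intervals of H2-Aa (-5.80 to -4.95) and H2-Ab1 overlapped. So did those of H2-DMa and H2-Ob, of H2-Ob and Ciita, and of Ciita and H2-Oa, so the order within these neighbours is not settled. The intervals of H2-Ab1 and Cd74, of Cd74 and H2-Eb1, and of H2-Eb1 and H2-DMa did not overlap here, but against deficient LN cells those of Cd74 and H2-Eb1 overlapped. The difference in fall between genes was not tested itself. In T lineage cells H2-Aa, H2-Ab1, H2-Eb1 and Cd74 lay below the array medians of 6.85 to 6.91. Ciita, at 6.88 and 6.72, also lay below the medians of the T lineage arrays (6.89 and 6.85). At such levels RMA values may understate a fall. Among the members, the profiles closest to each other over the 8 arrays were those of Ciita and H2-Oa, with a root mean square distance of 0.11 between their mean-centred log2 values, and of H2-DMa and H2-Ob (0.14), ahead of H2-Aa and H2-Ab1 (0.25). H2-Aa and H2-Oa were the least alike (1.84).

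The comparison of T lineage cells with deficient LN cells uses the same 2 T lineage arrays, so it repeats part of the comparison above. All 8 members were lower (8.16% of probesets were called lower and 5.98% higher), each by at least 1 (2.02% of probesets), and for 8 of 8 the arrays did not overlap (17.1% of probesets). H2-Aa differed by -5.31 (SE 0.19, adjusted p = 5.64e-08), the lowest value of all probesets, H2-Ab1 by -4.74, Cd74 by -3.82, H2-Eb1 by -3.18, H2-Ob by -1.94, H2-DMa by -1.91, Ciita by -1.13 and H2-Oa by -1.11. The largest adjusted p was 3e-04, for Ciita.

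**Figure D2:**
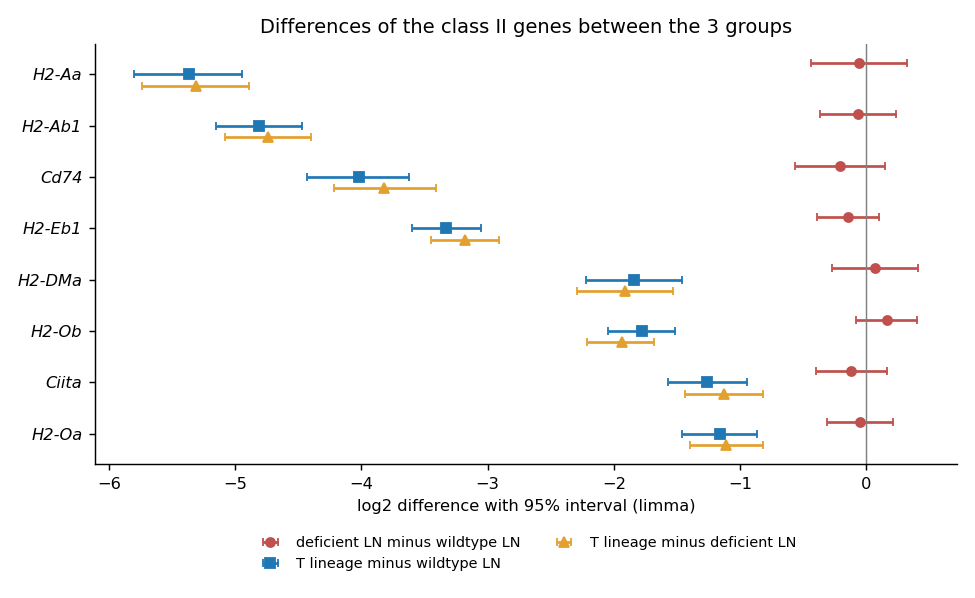
Log2 difference (horizontal axis) of each class II gene in the 3 comparisons, with 95% intervals from limma. Values of T lineage minus either LN group lie between -5.37 and -1.11, and the intervals of deficient minus wildtype LN all include 0.

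Deficient and wildtype LN cells were compared to ask whether progenitors lacking Tcf1 express this program differently. None of the 8 members passed, with 0.00459% of probesets called in either direction (1 probeset, lower), and limma gave 0 of the 8 an unadjusted p under 0.05, as against 4.92% of probesets (1071), a share at which 0 of 8 does not set the members apart. Values ran from -0.21 for Cd74 to 0.16 for H2-Ob with a median of -0.06 (all probesets -0.01), 6 below 0 and 2 above, and every adjusted p was 0.999. For 8 of 8 members the arrays of the genotypes overlapped, where 6.01% of probesets had all deficient arrays below all wildtype arrays. The share with all deficient arrays above was not counted.

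The intervals give the size of difference that 3 mice against 3 could still hide. For Cd74 the interval ran from -0.57 to 0.15, which reaches 1.48-fold on its far side, the widest reach of any member. For Ciita it ran from -0.40 to 0.16, for H2-Aa from -0.44 to 0.32, for H2-Ab1 from -0.37 to 0.23 and for H2-Eb1 from -0.39 to 0.10. For H2-Ob, the inhibitor chain with the highest point estimate, it ran from -0.08 to 0.40, for H2-Oa from -0.31 to 0.21 and for H2-DMa from -0.27 to 0.41. Small differences of either sign are therefore not detectable here, and none of these intervals reaches the falls seen in T lineage cells.

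Within the LN groups, 1 array stood apart. Wildtype array 3 had the highest value of its group for 8 of 8 members and the highest of all 6 LN arrays for 7 of 8, H2-Ob being the exception. It lay a median of 0.24 above its group mean, while wildtype arrays 1 and 2 lay 0.10 below. Without it, the differences between the genotypes turned from below 0 to above 0 for H2-Aa (0.05), H2-Ab1 (0.03), H2-Oa (0.07) and Ciita (0.01), and Cd74 moved to -0.03 and H2-Eb1 to -0.02. H2-DMa turned to -0.11 without wildtype array 2, where it was lowest. The sign of the difference between genotypes is thus not settled for these genes. On wildtype array 3 the mean log2 level of conventional dendritic cell markers was 8.33, against 8.13 and 8.15 on wildtype arrays 1 and 2. In the same order, monocyte and macrophage markers stood at 9.15 against 8.85 and 8.96, and granulocyte markers at 8.32 against 7.62 and 8.02. Plasmacytoid dendritic cell markers stood at 9.41 against 9.23 and 9.37. The remaining lists were not highest on array 3. B lineage markers stood at 7.03 against 6.69 and 7.12, and innate lymphoid and NK markers at 7.37 against 7.34 and 7.42. Stromal markers stood at 6.36 against 6.38 and 6.43, and T lineage markers at 6.73 against 6.82 and 6.76. The part of these markers in the values of array 3 was not tested. Between the genotypes, the mean level of plasmacytoid dendritic cell markers was 8.86 to 9.16 in deficient and 9.23 to 9.41 in wildtype LN arrays. That of innate lymphoid and NK markers was 7.24 to 7.26 and 7.34 to 7.42, and that of stromal markers 6.45 to 6.57 and 6.36 to 6.43. The means did not overlap in these 3 lists, but no single marker of them passed. In the plasmacytoid list, with a median of -0.35, Ccr9 (-0.64), Siglech (-0.54) and Bst2 (-0.47) differed most, and the rest by -0.39 to 0.0. In the stromal list Sparc (0.54), Cxcl12 (0.42) and Pdgfrb (0.39) differed most, and the rest by -0.12 to 0.09. In the innate lymphoid list Klrd1 (-0.47), Il7r (-0.37) and Eomes (-0.18) differed most, and the rest by -0.05 to 0.08. Of all single probesets, 6.01% had all deficient arrays below all wildtype arrays. That share is for a single direction and not for means of lists, so it is not a like background here. The stromal means lay in the other direction. The part of these markers in the comparison of the genotypes was not tested.

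**Figure D3:**
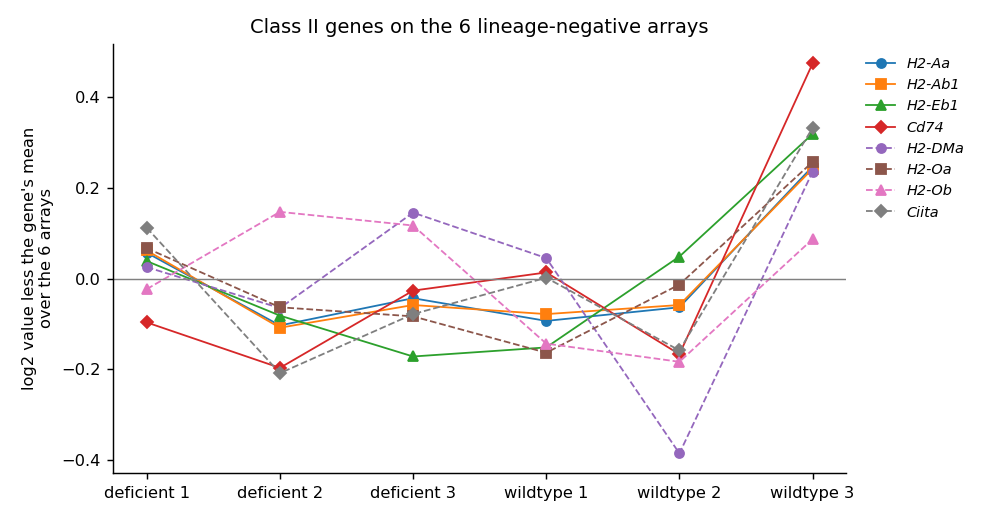
Log2 value of each class II gene less its mean over the 6 LN arrays (vertical axis), by array; the lines join values of a gene, and arrays have no order. Wildtype array 3 is highest for 7 of the 8 genes.

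The genes that lie between the class II members on the chromosome were measured too. In the RefSeq annotation (GRCm38.p6), the stretch from H2-Oa to H2-Eb1 holds 6 of the measured members, and all 6 fell. Among them lie 5 other measured genes, of which 0 fell, 1 passed as higher and 4 did not pass. With 10.4% of all probesets called lower and 7.66% higher, these counts are near the background, and the neighbours were not tested against the members. Brd2, a bromodomain protein next to H2-DMa, stood at 10.05 ± 0.09 (SD, n = 3) in wildtype LN and 10.00 ± 0.07 (SD, n = 2) in T lineage cells (difference -0.05, limma adjusted p = 0.74). The proteasome subunits Psmb9 and Psmb8, which shape peptides for class I, differed by 0.04 (0.85) and 0.12 (0.311). Tap1, a subunit of the class I peptide transporter, differed by -0.15 (0.256). Tap2, its partner, passed at 0.34 (0.0498), a call that 11 of 16 alternative settings lost, with adjusted p from 0.0175 to 0.37. It was lost without any single array other than T lineage array 2, and the difference was 0.21 without T lineage array 1. Brd2 and Psmb9 changed sign when single arrays were left out. The 8 start-site windows matched to 6 other genes of the stretch, measured or not, did not hold the spaced X and Y cores. These genes include H2-DMb2, itself a class II gene that was not measured, and Tap2 matched no window. The choice to look at neighbours was made after the member values were seen.

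**Figure D4:**
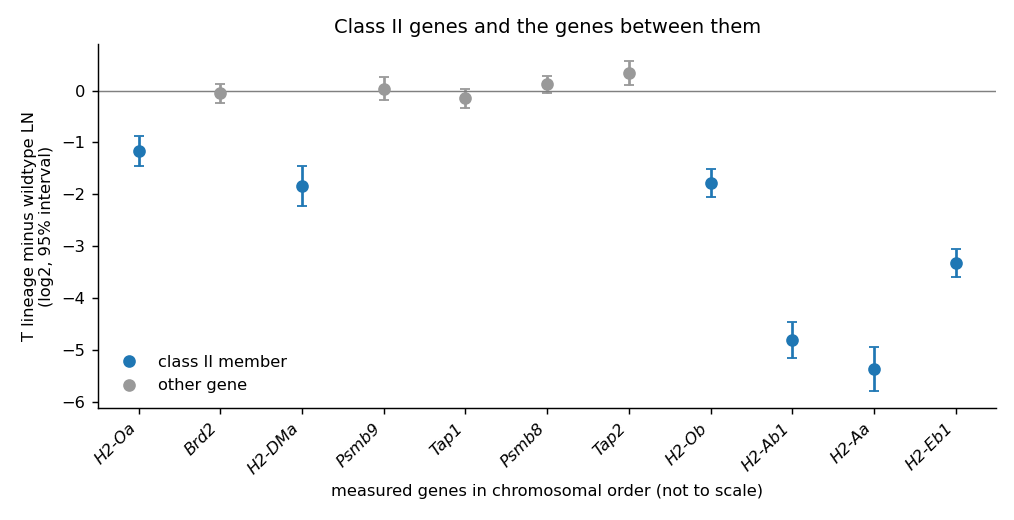
Log2 difference of T lineage minus wildtype LN cells with 95% interval (vertical axis) for the measured genes from H2-Oa to H2-Eb1, in chromosomal order and not to scale. The 6 class II members lie between -5.37 and -1.16, and the 5 genes among them between -0.15 and 0.34.

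The factors that assemble on the module come next. Each list count below stands against 10.4% of all probesets called lower and 7.66% higher between T lineage and wildtype LN cells. Between the genotypes 0.00459% of all probesets were called, so 0 called in a list does not set its genes apart. Of 10 enhanceosome and coactivator genes, 2 fell, 0 rose and 8 did not pass between T lineage and wildtype LN cells, with a median of -0.13, close to the background of 18% called in either direction. Only 1 passed under 5 of 16 alternatives, those that lost Kat2b. The RFX and NF-Y subunits (Rfx5, Rfxap, Rfxank, Nfya, Nfyb and Nfyc) differed by -0.15 to 0.06, and 0 of 6 passed (limma adjusted p from 0.296 to 0.818). Those that fell were acetyltransferases that work with Ciita: Ep300 by 0.47 (adjusted p = 0.00193) and Kat2b by 0.41 (0.022), while Crebbp stood at -0.24 (0.0887). The Kat2b call was lost with adjusted p up to 0.167, among these alternatives without wildtype LN array 1 or 3 and without T lineage array 1. Between the genotypes 0 of 10 passed, with Rfxap at -0.13 and Ep300 at -0.11.

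Upstream of Ciita, 7 of 14 measured regulators fell, 1 rose and 6 did not pass, with a median of -0.50. This list holds inducers and repressors together, so its counts and median give no direction of the input to Ciita. Irf8, a factor of dendritic cell and monocyte development, fell by 3.01 (limma adjusted p = 8.8e-07), from 10.55 ± 0.26 (SD, n = 3) to 7.53 ± 0.39 (SD, n = 2). Ifngr2, the signalling chain of the interferon gamma receptor, fell by 2.07 (1.58e-07), and Jak2, the kinase it brings to the receptor, fell by 1.18 (5.72e-06). Jak1 was the gene that rose (0.53, adjusted p = 0.00212), and this gene was named after its value was seen. Between the genotypes 0 of 14 passed, with Irf4 at -0.35 (adjusted p = 0.65) and Ifngr2 at -0.26 (0.778).

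Endosomal enzymes cut the invariant chain and supply peptide. Of 14 genes of endosomal processing, 10 fell, 1 rose and 3 did not pass, with a median of -1.43. Ctsh, a cathepsin, fell by 4.58 (limma adjusted p = 2.72e-08), Scpep1, a serine carboxypeptidase of lysosomes, by 3.34 (3.75e-08) and Psap, the precursor of the saposins, by 2.28 (1.1e-07). Ctss, the cathepsin that trims the invariant chain in presenting cells, is named here after its value was seen, and it fell by 4.03 (2.1e-06). Ctsd, another lysosomal protease, was the gene that rose (0.46, adjusted p = 0.0211), likewise named afterwards. Between the genotypes 0 of 14 passed, and the median was -0.19. Ifi30, a thiol reductase that unfolds antigens, stood at -0.57 (0.688) and passed without wildtype LN array 1 (-0.79, adjusted p = 0.049; over the alternatives 0.049 to 1). Ctsl, a cathepsin, stood at -0.54 (0.438).

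Other genes govern where class II molecules go and how long they last. Of 11 measured genes of turnover and traffic, 4 fell, 1 rose and 6 did not pass, with a median of -0.13, and the number called ranged from 3 to 5 over the alternatives, with 3 without wildtype LN array 3 or either T lineage array. Marchf1, the ubiquitin ligase that removes class II from the surface of dendritic and B cells, fell by 0.51 (limma adjusted p = 0.00144), and its relative Marchf8 rose by 0.47 (0.00219). Lamp2, a lysosomal membrane protein, fell by 0.79 (0.000124). Between the genotypes 0 of 11 passed, with Ap1s1, an adaptor subunit, at 0.49 and Cd9, a tetraspanin, at -0.14.

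Of 10 measured costimulatory genes of presenting cells, 4 fell, 0 rose and 6 did not pass, with a median of -0.22. Cd86 and Cd80, the ligands of Cd28, fell by 2.66 (limma adjusted p = 1.23e-05) and 1.07 (0.000372), and Tnfsf9, a ligand of the TNF family, fell by 0.69 (0.00447). Without T lineage array 2 or 1 the fall of Tnfsf9 ran from -0.93 to -0.45. Between the genotypes 0 of 10 passed, with Tnfsf9 at -0.34 and Cd80 at -0.21 on another probeset. The other class II genes measured did not pass. H2-Ea, the alpha chain that pairs with H2-Eb1, stood at 5.34 in wildtype LN and 5.24 in T lineage cells (-0.11, limma adjusted p = 0.538). H2-Eb2 stood at 6.04 and 6.20 and differed by 0.17 (0.295). Both genes lay below the array medians in every group, LN cells included, so their values leave little room for a fall. Between the genotypes H2-Ea differed by -0.12 and H2-Eb2 by 0.12, both with adjusted p = 0.999. Of 5 measured class I genes, 1 rose (Tap2), 1 fell (H2-M3, by 0.55, adjusted p = 0.000754) and 3 did not pass, and between the genotypes Tap2 differed by 0.09 and H2-M3 by 0.07.

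**Figure D5:**
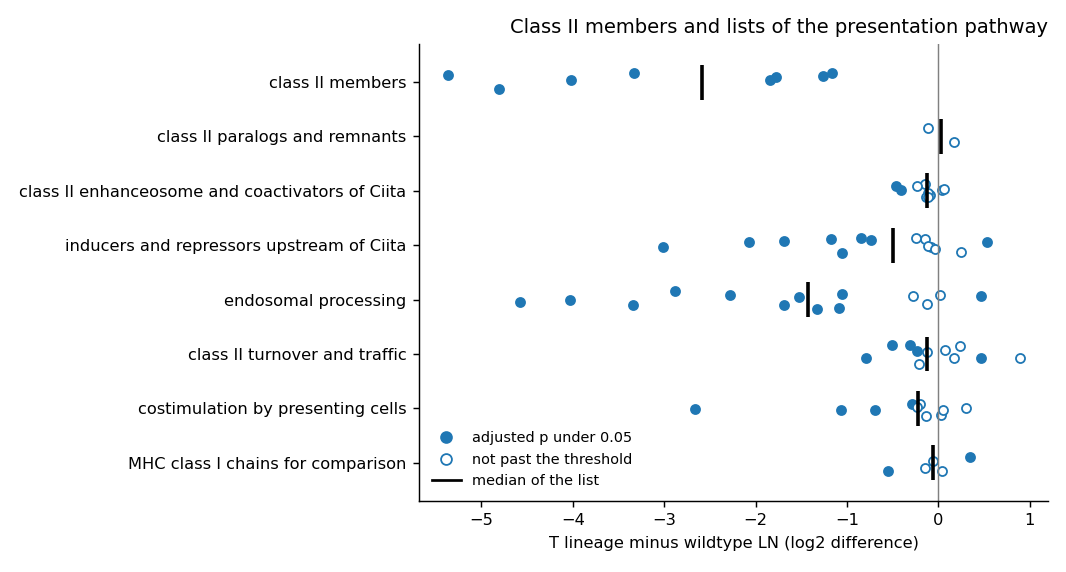
Log2 difference of T lineage minus wildtype LN cells (horizontal axis) for the class II members and the genes of 7 lists of the pathway; filled points have an adjusted p under 0.05, open points do not, and bars are medians. The medians are -2.58 for the members, -1.43 for endosomal processing and -0.13 for the enhanceosome.

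All other genes were ranked by the distance of their profile over the 8 arrays from the mean profile of H2-Aa, H2-Ab1, H2-Eb1 and Cd74. Of 21781 probesets compared, the nearest were Ifi205 (root mean square distance 0.15), Ctsh (0.16), Mpeg1, a pore-forming protein of macrophages (0.17), Plbd1 (0.18), Clec9a, a lectin of dendritic cells (0.19), Cybb, the phagocyte oxidase subunit (0.20), Flt3, the receptor used to sort the starting cells (0.21), and Rnd3 (0.22). On this scale H2-Ab1 itself lay at 0.22, Cd74 at 0.27, H2-Eb1 and H2-Aa at 0.47 and Ciita at 1.36. Over the 6 LN arrays alone, among 1761 probesets with a range of at least 0.5, the nearest were Vps26c (0.05), Ttc30b (0.06), Lrrk2 (0.06), Clec4a4 (0.06) and Btg2 (0.07). H2-Aa (range 0.34) and H2-Ab1 (0.35) would not pass that filter, so it may leave out nearer profiles. Clec4a4, at 4.06 to 4.56 on these arrays, lay below the array medians.

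Markers of cells that carry class II moved with the members between the gates. The LN gate took out Mac1-positive and Gr1-positive cells, which include most monocytes, macrophages and granulocytes. Conventional dendritic cell markers fell in 9 of 12 cases, plasmacytoid dendritic cell markers in 8 of 8 and monocyte and macrophage markers in 7 of 9, and 0 rose in these lists. Their mean log2 level ran from 8.13 to 8.33 in wildtype LN and 6.52 to 6.62 in T lineage arrays for the first list, from 9.23 to 9.41 and 7.64 to 7.70 for the second, and from 8.85 to 9.15 and 6.93 to 7.03 for the last. Those that did not pass were Zbtb46 (-0.09), Batf3 (-0.16) and Fscn1 (0.03) of the first list, and Cd14 (-0.22) and Fcgr1 (-0.02) of the last. The brightest markers of each list in wildtype LN cells were Flt3 (10.52) and Naaa (9.85), Tcf4 (11.03) and Siglech (10.78), and Ccr2 (11.63) and Lyz2 (10.55). Flt3 was also used to sort the starting cells. Among markers of the B lineage, another source of class II, 3 of 9 fell and 6 did not pass. Pax5 (0.14), Ms4a1 (0.10) and Cd79a (-0.30) did not pass, while Cd79b (-0.68), Cd22 (-1.16) and Blnk (-2.04) fell. The brightest B lineage markers in wildtype LN cells were Vpreb1 (8.79) and Cd79b (8.67). The part of these cell types in the fall of the class II genes was not tested.

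Other marker lists bear on the labels. T lineage markers rose in 8 of 9 cases, 2 of them (Thy1 and Il2ra) used in the sort, with a mean level of 6.73 to 6.82 in wildtype LN and 9.16 to 9.89 in T lineage arrays. Lat (8.51) and Thy1 (8.46) were the brightest of them in wildtype LN cells. Stromal markers changed in 0 of 10 cases, with means of 6.36 to 6.43 and 6.41 to 6.42, and Pdgfrb (8.0) and Col1a1 (7.54) were the brightest in wildtype LN cells. Granulocyte markers fell in 4 of 9 cases (means 7.62 to 8.32 and 6.56 to 6.61), with Mpo (11.65) and S100a9 (10.29) the brightest, and innate lymphoid and NK markers fell in 3 and rose in 1 of 8 (7.34 to 7.42 and 6.18 to 6.41), with Klrd1 (11.33) and Id2 (10.46) the brightest. Between the genotypes 0 markers of these lists passed, apart from Il2ra in the T lineage list, which was lower in deficient cells (-1.02, limma adjusted p = 0.0283). The targeted transcript itself was not analysed here.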

How the data were processed

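Each of the 8 arrays has 1 log2 value per probeset in the deposited table, made by the authors with RMA in Partek 6.5, per the submitters' processing notes. RNA (10 ng) was amplified and biotin-labelled, per the labels' protocols. The log2 scale was read from the values; RMA options and the array's genome build were not stated in these sources, and detection calls were not used. RMA usually scales arrays to a common distribution, so values are relative to the other arrays.

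Of 35399 probesets, 11989 had no gene and 1621 several genes in the annotation supplied, and 21789 with 1 gene were tested; symbols were updated through gene identifiers (99.6% matched). All arrays were fitted as 3 groups with limma 3.58.1 in R 4.3.3 (lmFit, eBayes, 5 residual degrees of freedom, two-sided, Benjamini-Hochberg over all probesets, adjusted p under 0.05 as a call). The fit was tested on simulated data. Precision is limited by how few arrays there are.

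The members and lists were chosen with earlier results of these data known. All members were named. From each pathway list the 3 genes of smallest p against wildtype LN cells and the 2 of largest genotype difference were named, by the probeset of smallest p, with the 8 and 5 genes of most similar profile and the 2 brightest markers of each marker list. The 16 alternatives covered dim probesets, normalization, centring, array weights, pairing, groups, probesets and variance prior, and each array left out.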

Additional observations from a re-analysis of the deposited data

How the results depend on the processing

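Against both LN groups all 8 members were called lower under all 16 alternatives, and between the genotypes 0 of 8 were called under any. With arrays left out in turn, the T lineage minus wildtype LN difference of H2-Aa ran from -5.77 to -4.97, of H2-Ab1 from -5.09 to -4.53, of Cd74 from -4.27 to -3.78, of H2-Eb1 from -3.44 to -3.20, of H2-DMa from -2.05 to -1.63, of H2-Ob from -1.97 to -1.60, of Ciita from -1.36 to -1.12 and of H2-Oa from -1.32 to -1.0. Between the genotypes the sign turned with 1 array left out for Ciita (-0.23 to 0.0145), H2-Oa (-0.15 to 0.0655), H2-DMa (-0.11 to 0.20), H2-Ab1 (-0.13 to 0.0323) and H2-Aa (-0.12 to 0.0492), and did not for H2-Ob (0.11 to 0.24), H2-Eb1 (-0.26 to -0.02) and Cd74 (-0.35 to -0.03). Of the neighbouring genes Brd2 (-0.10 to 0.0025) and Psmb9 (-0.0686 to 0.0926) turned; the cause was not tested. Same-numbered LN arrays of the genotypes did not deviate together (correlations over probesets of -0.13, 0.017 and 0.043). Those of T lineage and wildtype LN arrays were 0.158 and 0.12, and those of T lineage and deficient LN arrays -0.138 and -0.247, from 2 pairs each, so no pairing was assumed. With a replicate block 8, 8 and 0 members were called in the same comparisons, and H2-Aa differed by -5.32 from wildtype LN. The counts of enhanceosome genes called against wildtype LN cells ran from 1 to 3, those of turnover and traffic genes from 3 to 5 and those of class I genes from 1 to 2; against deficient LN cells enhanceosome calls ran from 0 to 2, and between the genotypes endosomal calls from 0 to 1. Crebbp passed with a variance trend and robust prior. With few arrays and no detection calls, how far the dimmest values in T lineage cells understate a fall is unknown.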
